A study of Mus musculus with 12 samples.

Results

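The genes of glycolysis and of the response to low oxygen were examined in the colon of mice with and without dextran sulfate sodium (DSS) colitis, with and without an inducible deletion of Tmem173 in myeloid cells. The set holds 32 genes, chosen by name: 15 glycolytic enzymes, 4 genes for a regulator of glycolysis and for glucose and lactate transporters, 4 genes of oxygen sensing and 9 genes known to be induced by hypoxia. They are 32 of 54532 genes in the deposited table, and all 32 were among the 24102 genes that were tested, having an FPKM (fragments per kilobase of gene length, scaled to a common library size) that reached 0.1 in 3 or more libraries. Enzymes are reported apart from the hypoxia-induced genes.

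Polyadenylated RNA of the whole colon of 12 mice on the C57BL/6N background was sequenced, with 1 library per mouse and 3 mice in each of 4 groups. Tmem173fl/fl mice carried a floxed Tmem173 gene, which encodes the innate immune adaptor STING, and no Cre. Tmem173iΔmye mice carried the same floxed gene and Lyz2-Creert2 (spelled Lzym-Creert2 in the labels), a tamoxifen-inducible Cre recombinase driven from the Lyz2 gene, which is expressed in myeloid cells, so that cells of the colon outside that lineage are not targeted. Both genotypes received 5 tamoxifen injections, so the drug is shared by all groups, and the methods give an age of 6 to 8 weeks at the start of DSS. The untreated groups drank distilled water, and the colitic groups (+ DSS) drank 2.5 to 3% DSS, a sulfated polysaccharide that injures the colon epithelium, for 7 days followed by 1 day of water.

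Glycolysis splits glucose into pyruvate in the cytosol, and lactate dehydrogenase turns pyruvate into lactate, which leaves the cell through monocarboxylate transporters. When oxygen is short, prolyl hydroxylases (the Egln genes) no longer mark the α subunits of the hypoxia-inducible factors (Hif1a and Epas1, the latter encoding HIF-2α) for destruction, and the stabilised factors bind a short DNA element whose core is ACGTG or GCGTG and activate genes for angiogenesis, mitophagy, collagen hydroxylation and glucose use. The colon epithelium is known to live at low oxygen because the lumen is anoxic, and HIF activity is a feature of the healthy mucosa. Because the factors are controlled mainly through protein stability, mRNA of Hif1a and Epas1 is not a measure of their activity. Neutrophils and activated macrophages are glycolytic cells.

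To show the element in genes on which the results below turn, the 250 bases before the RefSeq start site (build GRCm38.p6) are printed for 4 genes that rose with DSS and for Ldha, an enzyme gene that did not. Each runs 5′ to 3′ on the gene's strand, and capitals mark ACGTG or GCGTG and their reverse complements CACGT and CACGC, read on both strands. A CACGTG holds ACGTG on each strand, and its overlapping pair counts as 2 matches.
Slc16a3 (chr11:120948817-120949066, plus strand): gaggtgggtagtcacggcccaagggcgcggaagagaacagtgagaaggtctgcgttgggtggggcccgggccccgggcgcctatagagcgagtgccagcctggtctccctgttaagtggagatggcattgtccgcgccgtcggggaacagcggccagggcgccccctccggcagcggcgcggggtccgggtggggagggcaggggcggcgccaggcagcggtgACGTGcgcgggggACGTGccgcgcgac
P4ha2 (chr11:54100674-54100923, plus strand): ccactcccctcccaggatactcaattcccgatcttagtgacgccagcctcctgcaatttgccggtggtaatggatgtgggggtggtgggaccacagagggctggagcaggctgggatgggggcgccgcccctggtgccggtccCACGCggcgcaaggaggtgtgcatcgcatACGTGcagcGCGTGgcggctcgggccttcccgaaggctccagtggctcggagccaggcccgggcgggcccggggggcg
Bnip3 (chr7:138909507-138909756, minus strand): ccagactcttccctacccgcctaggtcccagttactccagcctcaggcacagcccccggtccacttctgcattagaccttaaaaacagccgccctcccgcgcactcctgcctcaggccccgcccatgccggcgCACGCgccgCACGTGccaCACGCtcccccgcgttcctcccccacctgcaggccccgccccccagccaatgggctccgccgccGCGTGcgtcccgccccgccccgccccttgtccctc
Pfkfb3 (chr2:11502091-11502340, minus strand, 1 of 2 annotated starts): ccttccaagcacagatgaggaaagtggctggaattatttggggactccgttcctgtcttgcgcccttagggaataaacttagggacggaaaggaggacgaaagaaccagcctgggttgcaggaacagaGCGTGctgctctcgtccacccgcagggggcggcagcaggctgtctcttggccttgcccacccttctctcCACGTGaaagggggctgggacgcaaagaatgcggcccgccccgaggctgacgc
Ldha (chr7:46845554-46845803, plus strand, 1 of 2 annotated starts): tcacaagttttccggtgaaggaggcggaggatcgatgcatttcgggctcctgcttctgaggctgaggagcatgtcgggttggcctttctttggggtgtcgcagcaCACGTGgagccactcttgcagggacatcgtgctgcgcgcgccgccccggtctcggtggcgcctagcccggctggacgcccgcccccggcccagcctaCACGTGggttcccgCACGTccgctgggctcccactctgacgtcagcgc
The Slc16a3 window held ACGTG at 27 to 23 and at 14 to 10 bases before the start, the P4ha2 window held it at 78 to 74, and the Bnip3 and Pfkfb3 windows each held a CACGTG, at 108 to 103 and at 53 to 48 bases before the start. The Ldha window held 5 matches of ACGTG, the most of the 5 windows. In the GENCODE annotation the Slc16a3, P4ha2, Pfkfb3 and Ldha windows lie inside the span of their gene, downstream of its outermost start, and the last 14 bases of the Slc16a3 window, 13 of the Bnip3 window and 11 of the Pfkfb3 window are annotated as exon. A match describes the letters and not a bound site.

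Library totals ran from 13823237 to 18718915 counts, so depth differed little. Mitochondrial genes took 3.39 to 5.0% of counts in untreated Tmem173fl/fl, 3.01 to 4.61% in untreated Tmem173iΔmye, 2.03 to 2.73% in colitic Tmem173fl/fl and 3.24 to 6.62% in colitic Tmem173iΔmye libraries, so the colitic Tmem173fl/fl libraries were the lowest, and the part of this in the results below was not tested. Tmem173 itself was measured in whole colon, where cells that are not targeted also contribute. In CPM (counts scaled to a common library size, used below for comparing 1 gene between libraries), it stood at 17.7 ± 3.40 in untreated Tmem173iΔmye against 20.6 ± 5.46 in untreated Tmem173fl/fl mice, and at 34.2 ± 12.3 against 41.4 ± 3.30 CPM in colitic mice (SD, n = 3), and neither difference passed the test (edgeR adjusted p = 1 and 0.602), so the deletion was not detectable in this RNA. Replicate 3 of each untreated group and replicate 5 of the colitic Tmem173iΔmye group held from 20384 to 29356 counts of Xist and 0 of the Y-linked gene Ddx3y, while the other 9 libraries held 3 to 8 counts of Xist and 842 to 1824 of Ddx3y, so sex was unequally spread over the groups. Pancreas genes were also unevenly spread, with 1739 to 9428 CPM summed over 7 markers in 5 libraries (replicate 3 of untreated Tmem173fl/fl, 2 of untreated Tmem173iΔmye, 1 and 2 of colitic Tmem173fl/fl and 1 of colitic Tmem173iΔmye mice) and 102.8 to 513 CPM in the other 7. Colon epithelium markers were present in every library, none at 0, and their summed level in CPM was 12670 to 15880 and 13360 to 15950 in untreated Tmem173fl/fl and Tmem173iΔmye mice, 4581 to 7920 in colitic Tmem173fl/fl mice and 10240 to 12170 in colitic Tmem173iΔmye mice.

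The highest levels among the members were those of glycolytic enzymes. By FPKM, which divides by gene length and allows genes to be compared, the 9 highest of the 32 genes were enzymes. Aldoa, the aldolase of most tissues, led at a mean of 344 FPKM over the 12 libraries, ahead of Ldha at 257.1, the pyruvate kinase gene Pkm at 178.3, the phosphoglycerate kinase gene Pgk1 at 154.5, the triosephosphate isomerase gene Tpi1 at 136.7, the enolase gene Eno1 at 99.1, the phosphoglycerate mutase gene Pgam1 at 78.6, the glucose-6-phosphate isomerase gene Gpi1 at 69.3 and Hk2, an inducible hexokinase, at 56.6. The basal glucose transporter Slc2a1 (47.9), Hif1a (46.2) and Epas1 (46.1) followed. The highest hypoxia-induced genes were Ndrg1 (29.0), Car9 (26.6), a carbonic anhydrase at the cell surface, and Vegfa (24.1), the main angiogenic growth factor. At the foot were Pfkm (4.44), the muscle phosphofructokinase, P4ha2 (2.01) and the high-affinity glucose transporter Slc2a3 (1.95). In this order 30 of 31 neighbouring pairs overlapped over the 12 libraries, the exception being Egln1 above Pdk1, so the order gives tiers rather than ranks.

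**Figure D1:**
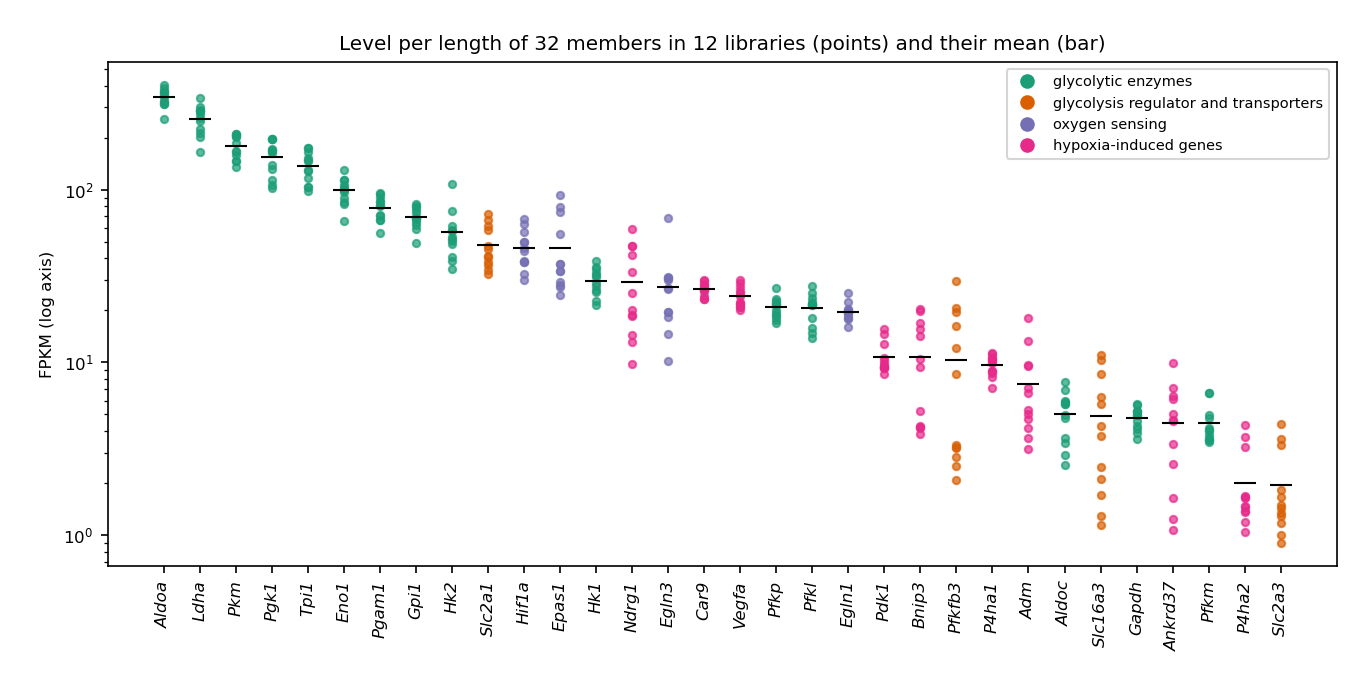
Level of each gene in FPKM on a log axis, with 1 point per library in 12 libraries, ordered by the mean over libraries. Points are coloured by gene list. Aldoa at a mean of 344 FPKM and other enzymes fill the top, and P4ha2 (2.01) and Slc2a3 (1.95) the foot.

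The Gapdh row is uncertain. The gene is among the most abundant in most tissues but stood at 3.61 to 5.71 FPKM here, with 243 to 445 counts per library, and the table holds 6 further rows named for the family, 5 of them pseudogenes, with 454 counts in all libraries together. Whether strand was used in counting is not stated, so genes that overlap a neighbour are uncertain too. Pfkm overlaps Senp1 on the other strand (means of 248.7 and 823.2 counts), Ankrd37 overlaps Ufsp2 (114.0 and 644.9) and Gapdh overlaps Iffo1 (323.9 and 287.1). On its own strand Slc2a3 overlaps the processed pseudogene Gm4482, which had a mean of 16.4 counts against 237.9 for Slc2a3, and Pkm overlaps AC160637.1 (1081 against 14690 counts). The Eno1 family includes Eno1b, with 14697 counts over all libraries against 103838 for Eno1. A second row named Aldoa, with at most 1.94 CPM, was not counted as a member.

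The spread between groups varied widely within each list. The highest of the 4 group means exceeded the lowest by a median of 1.32-fold over the 15 enzymes, from 1.13-fold to 2.1-fold for Hk2, by 2.2-fold over the oxygen-sensing genes (from 1.05-fold for Egln1 to 2.96-fold for Epas1), by 2.95-fold over the hypoxia-induced genes (from 1.07-fold for Car9 to 3.55-fold for Ankrd37) and by 5.04-fold over the regulator and transporters (from 1.6-fold for Slc2a1 to 7.71-fold for Pfkfb3).

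**Figure D2:**
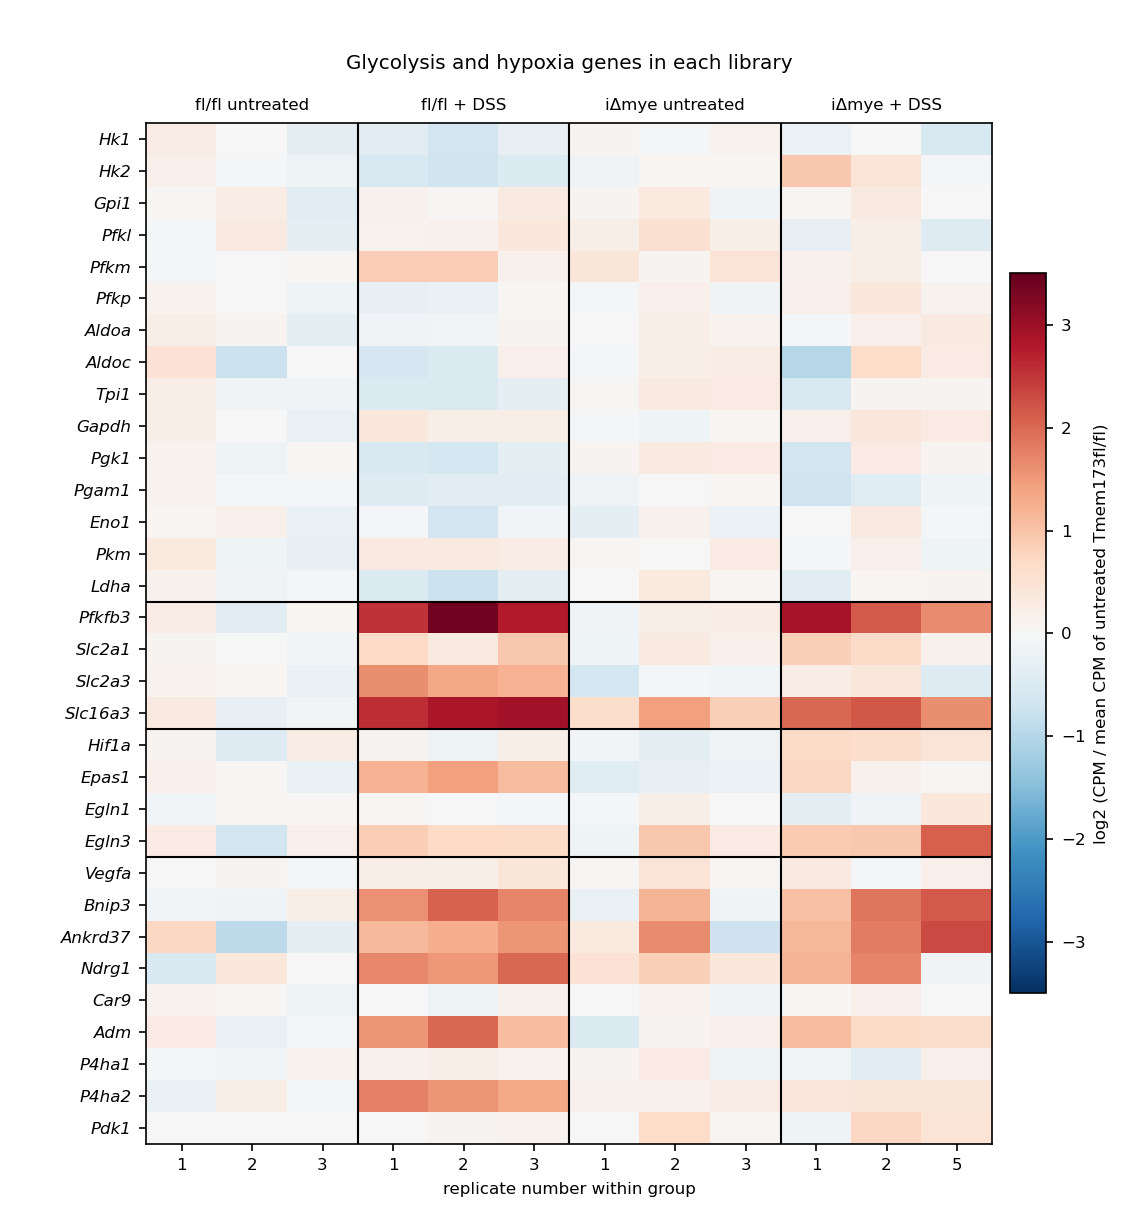
log2 of CPM over the mean CPM of untreated Tmem173fl/fl mice, for 32 genes (rows, by list) in 12 libraries (columns, by group), on a colour scale that ends at 3.5 in each direction. Among the strongest colours are those of Pfkfb3 and Slc16a3 in the colitic Tmem173fl/fl libraries. Pfkfb3 in colitic Tmem173iΔmye replicate 1 (155.6 CPM) is also among them, while the enzyme rows stay pale.

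The first comparison asks what DSS colitis did in mice with an intact Tmem173 gene. The regulator Pfkfb3 and the lactate exporter Slc16a3 rose most, and hypoxia-induced genes for mitophagy, vascular tone and collagen modification rose with them. By the thresholds given next, 0 of the 15 enzymes were called in either direction. A gene was called at an edgeR adjusted p under 0.05 over all 24102 genes and a log2 fold change of at least 1 in size. In colitic Tmem173fl/fl mice 9 of 32 genes were called higher and 0 lower, where 14.9% of all genes tested were called higher and 7.61% lower. By list, 3 of 4 regulator and transporter genes, 5 of 9 hypoxia-induced genes and 1 of 4 oxygen-sensing genes were called higher. The median log2 fold change was 2.17 for the regulator and transporters, 1.40 for the hypoxia-induced genes, 0.46 for oxygen sensing and -0.18 for the enzymes, against 0.03 over all genes.

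Pfkfb3 (chr2:11471433-11554077, minus strand) makes fructose-2,6-bisphosphate, the strongest activator of phosphofructokinase. It stood at 25.2, 16.3 and 21.9 CPM in untreated Tmem173fl/fl replicates 1, 2 and 3, and at 121.3, 221.0 and 145.8 CPM in the colitic ones. All 3 colitic libraries lay far above all untreated ones, and replicate 2 was the highest. The rise was 8.09-fold, or 3.02 on the log2 scale (SE 0.25, adjusted p = 1.86e-05).

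Slc16a3 (chr11:120948480-120960868, plus strand) encodes MCT4, the carrier by which glycolytic cells export lactate, and its promoter carries the ACGTG pair printed above. It was at 9.39, 6.23 and 7.02 CPM without DSS and at 45.1, 54.7 and 58.0 CPM with DSS. The groups were far apart. The rise was 7.32-fold (log2 2.87, SE 0.20, adjusted p = 5.17e-06). Slc2a3, which encodes GLUT3, the glucose transporter of neurons and leukocytes, was at 11.1, 10.6 and 8.64 CPM without DSS and at 31.4, 25.9 and 23.7 CPM with DSS, again without overlap, a 2.80-fold rise (log2 1.48, SE 0.18, adjusted p = 0.000185). Slc2a1, which encodes GLUT1, was at 138.5, 131.3 and 121.8 CPM against 213.6, 163.4 and 250.4 CPM, a smaller separation (log2 0.75, SE 0.17, adjusted p = 0.0067) that stayed under the fold threshold.

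Among the hypoxia-induced genes, Bnip3 (chr7:138890836-138909519, minus strand), a receptor for mitophagy, was at 9.92, 9.75 and 12.2 CPM in untreated and 32.02, 44.4 and 34.9 CPM in colitic libraries (log2 1.87, SE 0.19, adjusted p = 4.91e-05). Ndrg1, a stress-response gene of differentiating epithelium, was at 66.0, 125.0 and 96.6 CPM and then at 307.5, 272.6 and 385.7 CPM (log2 1.82, SE 0.23, adjusted p = 0.000249). Neither gene overlapped between groups, though untreated Ndrg1 replicate 1 stood well below the other two.

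Adm, the precursor of the vasodilator peptide adrenomedullin, was at 8.79, 6.09 and 6.89 CPM without DSS and at 21.3, 29.2 and 15.4 CPM with DSS (log2 1.67, SE 0.26, adjusted p = 0.000815). P4ha2 (chr11:54100095-54131665, plus strand), a catalytic subunit of the prolyl 4-hydroxylase that collagen needs to fold, was at 6.67, 9.27 and 7.58 CPM against 26.8, 22.9 and 19.8 CPM (log2 1.63, SE 0.20, adjusted p = 0.000177). Its sister subunit P4ha1 gave 0.24 on the log2 scale (SE 0.13, adjusted p = 0.19), and the difference between the subunits was not tested.

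Ankrd37, an ankyrin-repeat gene induced through HIF, rose from 5.30, 1.69 and 2.57 CPM to 6.99, 7.67 and 9.26 CPM (log2 1.40, SE 0.38, adjusted p = 0.0165). It had the highest adjusted p of the 9 calls and was lost without untreated replicate 3 (log2 1.27, adjusted p = 0.0691) or with all 12 libraries in 1 fit (adjusted p = 0.0735). The libraries with reads of Y-linked genes alone, an alternative added after the data were seen, are in this comparison the same fit as without untreated replicate 3. The other 8 calls held in it. Beside P4ha1, 3 hypoxia-induced genes were not called. Vegfa ran from 88.4 to 98.8 CPM without DSS and from 107.7 to 126.2 with DSS (log2 0.36, SE 0.13, adjusted p = 0.0485). Car9 gave a log2 fold change of 0.05 (SE 0.14) and Pdk1, a pyruvate dehydrogenase kinase gene, 0.14 (SE 0.12, adjusted p = 0.392).

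Of the oxygen-sensing genes, Epas1 (chr17:86753907-86833410, plus strand), which is prominent in endothelium, was called. It was at 202.0, 185.3 and 152.4 CPM without DSS and at 417.3, 491.1 and 389.3 CPM with DSS (log2 1.34, SE 0.16, adjusted p = 0.00018). Hif1a was at 267.3, 181.5 and 299.7 CPM against 268.1, 222.0 and 288.4 CPM, groups that overlapped almost fully (log2 0.12, SE 0.20, adjusted p = 0.68). The hydroxylase gene Egln3, itself a HIF target, gave a log2 fold change of 0.81 (SE 0.22, adjusted p = 0.0166) and the main hydroxylase Egln1 0.05 (SE 0.12).

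The enzymes gave log2 fold changes from -0.50 to 0.74, 6 above and 9 below 0. Counted by adjusted p alone, 13 of the 32 genes were higher and 1 lower, where 19.5% of all genes were higher and 16.0% lower, and 2 of these were enzymes. Pfkm was higher (22.0, 22.2 and 13.4 CPM against 11.8, 12.1 and 12.4, log2 0.74, SE 0.22, adjusted p = 0.0242). Hk2 (chr6:82725025-82774454, minus strand) was lower (229.5, 206.3 and 240.3 CPM against 380.5, 325.7 and 296.9, log2 -0.50, SE 0.15, adjusted p = 0.0255), and its groups did not overlap. At an unadjusted p under 0.05 there were 6 of 15 enzymes, no larger a share than the 10720 of all 24102 genes, Ldha, Pgk1, Tpi1 and Pgam1 being the other 4, all with log2 fold changes from -0.44 to -0.33 and edgeR adjusted p from 0.0567 to 0.087. DESeq2 and limma also called 0 of 15. Scaled by library totals in place of TMM (the trimmed mean of M-values), the median of all genes moved from 0.03 to 0.165 (log2), and of the members' directions for DSS in these mice only that of Pfkp turned, from -0.09 to 0.05.

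**Figure D3:**
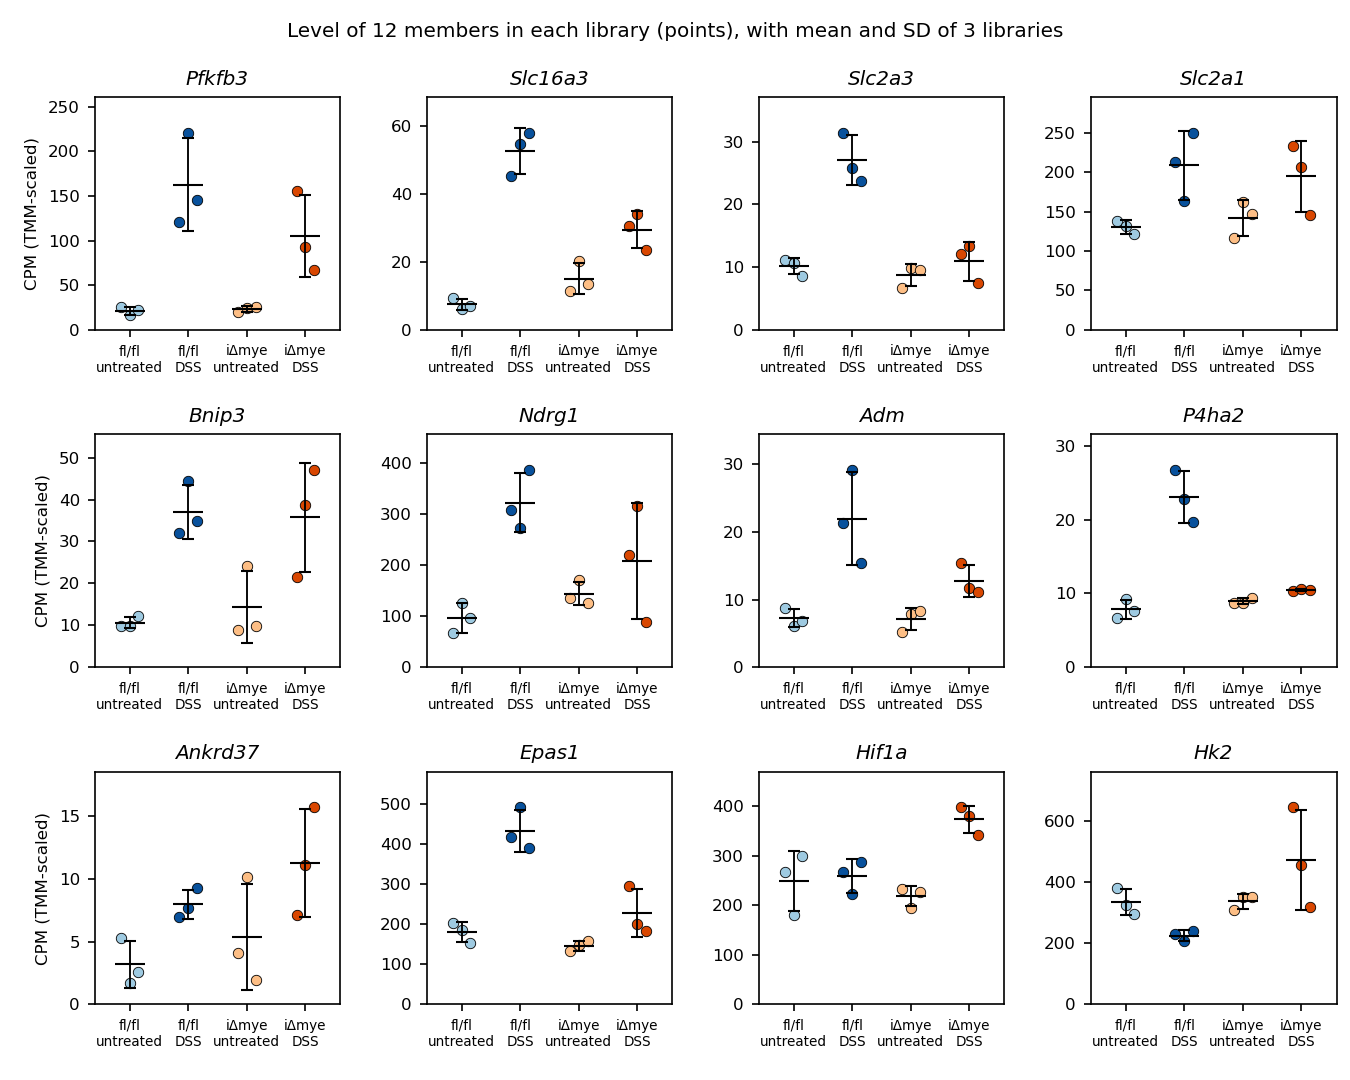
CPM of 12 genes in each library (points) by group, with the mean and SD over 3 mice. Pfkfb3 rises from a mean of 21.1 to 162.7 CPM with DSS in Tmem173fl/fl mice and from 23.2 to 105.2 CPM in Tmem173iΔmye mice, while P4ha2 and Slc2a3 are high in colitic Tmem173fl/fl mice and lower in the other 3 groups.

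Marker genes of several cell types moved with these genes. In colitic Tmem173fl/fl mice 9 of 9 neutrophil markers, 7 of 7 fibroblast markers, 7 of 7 endothelial markers and 7 of 9 macrophage and dendritic cell markers were called higher, and 6 of 8 epithelial markers lower. The summed level rose from 46.4 to 105.5 CPM without DSS to 457.5 to 763 CPM with DSS for neutrophil markers, from 1244 to 1456 to 8113 to 10320 CPM for fibroblast markers, and from 132.9 to 144 to 568.8 to 790.2 CPM for endothelial markers. Most of the untreated neutrophil sum was Ly6g, at 100.9, 41.6 and 75.0 CPM without DSS and 224.0, 95.2 and 142.6 CPM with DSS. The median log2 fold change over the 9 neutrophil markers was 7.27. Of these markers the neutrophil genes S100a8, Ngp, Mmp8, Cxcr2 and Stfa2l1 were each at 0 in some untreated libraries, and none was at 0 in a colitic library. Red blood cell markers rose too, 5 of 6 called higher, from a summed 4.51 to 6.74 CPM to 151.9 to 323.1 CPM. Their part in the rise of Epas1, P4ha2, Slc2a3 or any other member was not tested, and in whole-colon RNA fewer cells of a type and less RNA per cell cannot be told apart.

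DSS in Tmem173iΔmye mice was compared with the untreated mice of the same genotype, none of which enter the comparison above. Pfkfb3 was the 1 member called here, where 1.48% of all genes were called higher and 0.597% lower. Those shares rest on single libraries, since the 501 calls over all genes became 51 to 72 without any 1 untreated library, 238 without colitic replicate 1 and 1469 without colitic replicate 5. Pfkfb3 rose from 19.5, 24.6 and 25.4 CPM in untreated replicates 1, 2 and 3 to 155.6, 93.4 and 66.6 CPM in colitic replicates 1, 2 and 5, with no overlap but a wide spread among the colitic mice. The rise was 4.53-fold (log2 2.18, SE 0.30, edgeR adjusted p = 0.00736). The call was lost when any of the 3 untreated libraries was left out (adjusted p from 0.0796 to 0.0888) and with limma (0.073 and 0.0846 at pseudocounts of 0.1 and 1), with log2 fold changes from 1.79 to 2.54 over all alternatives.

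Several other members had log2 fold changes above 0 without a call. Bnip3 was at 8.86, 24.2 and 9.74 CPM without DSS and at 21.5, 38.7 and 47.1 CPM with DSS (log2 1.32, SE 0.41, adjusted p = 0.148), and the untreated replicate 2 lay within the colitic range. Slc16a3 went from 11.5, 20.4 and 13.4 CPM to 30.6, 34.2 and 23.4 CPM without overlap (log2 0.96, SE 0.27, adjusted p = 0.111). Hif1a went from 232.7, 195.5 and 227.4 CPM to 398.0, 379.5 and 342.9 CPM, also without overlap (log2 0.77, SE 0.19, adjusted p = 0.0733). DESeq2 also called Bnip3.

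P4ha2 moved little in this genotype, from 8.68, 8.74 and 9.38 CPM to 10.3, 10.6 and 10.5 CPM (log2 0.23, SE 0.25, adjusted p = 0.716), and Slc2a3 went from 6.68, 9.88 and 9.50 CPM to 12.1, 13.3 and 7.41 CPM (log2 0.33, SE 0.31, adjusted p = 0.673). Both P4ha2 groups were tight and did not overlap, and the Slc2a3 groups did. Hk2 was at 645.0, 455.9 and 317.7 CPM after 307.4, 351.2 and 352.5 CPM, so replicate 1 stood far above and replicate 5 within the untreated range (log2 0.49, SE 0.26, adjusted p = 0.411). Egln3 was highest in colitic replicate 5, at 185.6 CPM against 83.0 and 83.2 CPM in replicates 1 and 2 (log2 0.99, SE 0.36, adjusted p = 0.215).

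By list the median log2 fold change was 0.70 for the regulator and transporters, 0.70 for oxygen sensing, 0.23 for the hypoxia-induced genes and -0.14 for the enzymes, against 0.02 over all genes. The enzymes ran from -0.46 for the liver phosphofructokinase Pfkl to 0.49 for Hk2, and 0 of 15 were called, 0 had an unadjusted p under 0.05 in edgeR (3749 of all 24102 genes had), and DESeq2 and limma called 0. The colitic Tmem173iΔmye libraries were also the most varied group, with a median coefficient of variation of 19.2% over the 32 genes against 12.1% in colitic Tmem173fl/fl, 12.9% in untreated Tmem173iΔmye and 14.9% in untreated Tmem173fl/fl mice. Of the same markers, 5 of 9 for neutrophils, 1 of 7 for fibroblasts and 0 of 7 for endothelium were called higher, the last with 7 of 7 at an unadjusted p under 0.05. For macrophages and dendritic cells 1 of 9 was called higher. Red blood cell markers had 0 of 6 called (median log2 fold change -0.01) and epithelial markers 0 of 8 in either direction.

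**Figure D4:**
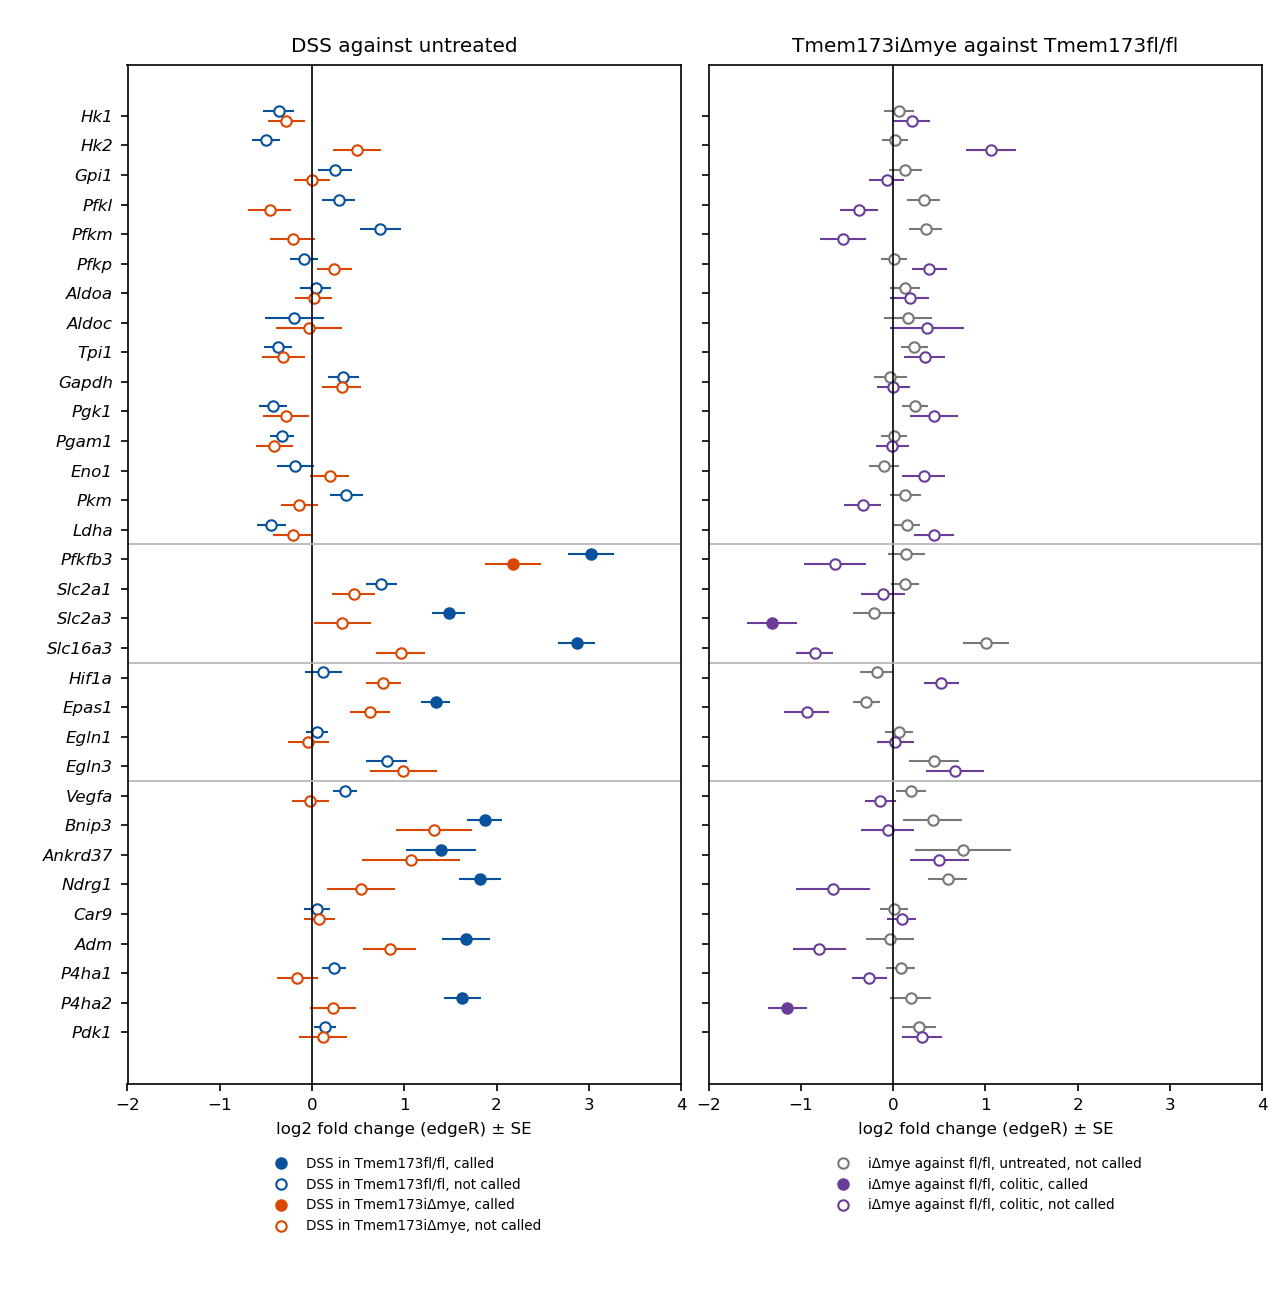
log2 fold change with its SE for each of 32 genes, for DSS in each genotype (left) and for Tmem173iΔmye against Tmem173fl/fl mice, untreated and colitic (right), with filled points for calls. On the left Pfkfb3 is filled in both genotypes (3.02 and 2.18), and on the right only P4ha2 (-1.15) and Slc2a3 (-1.31) are filled, both in colitic mice.

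Without DSS no member was called between genotypes. Of the 32 genes 0 passed the test, as of all genes (0.0%), with an adjusted p of 1 for each in edgeR, and DESeq2 and limma called 0 of the 32 as well. At an unadjusted p under 0.05 there were 2 members, Slc16a3 (11.5, 20.4 and 13.4 CPM in Tmem173iΔmye against 9.39, 6.23 and 7.02 CPM in Tmem173fl/fl mice, log2 1.01, SE 0.25) and Ndrg1 (135.6, 169.5 and 126.3 CPM against 66.0, 125.0 and 96.6 CPM, log2 0.59, SE 0.21), and neither overlapped. Across all genes 720 had such a p. Replicate 2 of the untreated Tmem173iΔmye group was the highest of its group for 20 of 32 genes. That count was not particular to it. Untreated Tmem173fl/fl replicate 1 was highest of its group for 20, colitic Tmem173fl/fl replicate 3 for 19 and colitic Tmem173iΔmye replicate 2 for 17. Untreated Tmem173iΔmye replicate 2 was also highest for 7 of 9 hypoxia-induced genes, against at most 5 of 9 for a library of another group. It held Bnip3 at 24.2 CPM against 8.86 and 9.74 CPM, Ankrd37 at 10.1 against 4.07 and 1.92 CPM and Pdk1 at 115.6 against 75.2 and 77.1 CPM. The same library had the highest summed red blood cell markers of the untreated libraries, 60.5 CPM against 4.51 to 14.9 CPM, and 1739 CPM of pancreas markers, and their part in these levels was not tested.

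Between colitic genotypes, Slc2a3 and P4ha2 were lower in Tmem173iΔmye than in Tmem173fl/fl mice, and these were the 2 members called, where 1.99% of all genes were called lower and 0.822% higher (480 and 198 genes, or 679 and 161 when scaled by library totals). These 678 calls over all genes became 27, 204 and 123 without colitic Tmem173fl/fl replicate 1, 2 or 3, and 1593, 46 and 508 without colitic Tmem173iΔmye replicate 1, 2 or 5. This comparison shares the colitic libraries with the DSS comparisons above, so the values are given side by side and not as separate evidence. Slc2a3 (chr6:122727809-122801640, minus strand) was at 12.1, 13.3 and 7.41 CPM in colitic Tmem173iΔmye against 31.4, 25.9 and 23.7 CPM in colitic Tmem173fl/fl mice (log2 -1.31, SE 0.27, edgeR adjusted p = 0.0397). P4ha2 was at 10.3, 10.6 and 10.5 against 26.8, 22.9 and 19.8 CPM (log2 -1.15, SE 0.21, adjusted p = 0.0311). In both genes every Tmem173iΔmye library lay under every Tmem173fl/fl library. Both calls were lost without any of the 3 colitic Tmem173fl/fl libraries, without colitic Tmem173iΔmye replicate 2, and with limma. A block for replicate number also ended both calls (edgeR adjusted p = 0.115 for P4ha2 and 0.131 for Slc2a3), though replicate numbers did not pair the samples. The log2 fold changes of the 2 genes stayed from -1.46 to -0.83 over all alternatives, and the adjusted p ran up to 0.197.

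Epas1 and Slc16a3 also did not overlap and were not called. Epas1 was at 294.8, 201.0 and 183.8 CPM against 417.3, 491.1 and 389.3 CPM (log2 -0.94, SE 0.24, adjusted p = 0.0753), and Slc16a3 was at 30.6, 34.2 and 23.4 CPM against 45.1, 54.7 and 58.0 CPM (log2 -0.85, SE 0.20, adjusted p = 0.0598). In the other direction Hk2 was at 645.0, 455.9 and 317.7 CPM against 229.5, 206.3 and 240.3 CPM (log2 1.06, SE 0.27, adjusted p = 0.0753), Hif1a at 398.0, 379.5 and 342.9 CPM against 268.1, 222.0 and 288.4 CPM (log2 0.52, SE 0.19, adjusted p = 0.174), and Egln3 gave 0.67 (SE 0.31, adjusted p = 0.273). DESeq2 called Hk2 as well as the 2 members above. Bnip3 was close in the colitic genotypes, 35.7 ± 13.1 CPM in Tmem173iΔmye and 37.1 ± 6.46 CPM in Tmem173fl/fl mice (log2 -0.06, SE 0.29).

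The enzymes had a median log2 fold change of 0.20 in this comparison, with 9 above and 5 below 0, and 0 of 15 were called by limma or by edgeR on the filtered genes and these 6 libraries. Hk2 was called by DESeq2, and by edgeR with no filter or with all 12 libraries in 1 fit, and was also the 1 enzyme with an unadjusted p under 0.05, as 4869 of all 24102 genes had. The 4 regulator and transporter genes were all below 0 (median -0.74). Of the 9 hypoxia-induced genes 6 were below 0 (median -0.14), against 0.02 over all genes. Beside these, 5 of 7 fibroblast, 2 of 7 endothelial, 6 of 9 neutrophil and 5 of 6 red blood cell markers were called lower in colitic Tmem173iΔmye mice, whose summed fibroblast markers ran from 2376 to 3511 CPM and endothelial markers from 207.8 to 430.9 CPM, and all 8 epithelial markers had a log2 fold change above 0 with 0 called (7 at an unadjusted p under 0.05), while 3 of 8 colonocyte markers (median 1.01) and 1 of 7 goblet cell markers (median 1.3) were called higher. Macrophage and dendritic cell markers had 1 of 9 called lower, with 7 below and 2 above 0 (median -0.73). The part of all these markers in the lower P4ha2 and Slc2a3 was not tested.

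The interaction asks whether the response to DSS differed between genotypes. It was below 0 and called for 2 of 32 members, Slc16a3 and P4ha2, where 1.61% of all genes were called below and 0.934% above 0 (389 and 225 genes, or 630 and 171 when scaled by library totals, with the median of all genes at -0.13 in place of 0.04). For Slc16a3 the log2 response was 2.87 in Tmem173fl/fl and 0.96 in Tmem173iΔmye mice (interaction -1.84, SE 0.34, edgeR adjusted p = 0.0134). The higher untreated level in Tmem173iΔmye mice, a mean of 15.1 ± 4.68 against 7.55 ± 1.65 CPM, enters this contrast together with the lower colitic level, 29.4 ± 5.46 against 52.6 ± 6.66 CPM. For P4ha2 the responses were 1.63 and 0.23 (interaction -1.33, SE 0.28, adjusted p = 0.023). Slc2a3 had an interaction of -1.08 (SE 0.35, adjusted p = 0.12) and Ndrg1 of -1.22 (SE 0.50, adjusted p = 0.219).

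Both interaction calls were lost in the 9 libraries with reads of Y-linked genes, at -1.76 (adjusted p = 0.0764) for Slc16a3 and -1.30 (adjusted p = 0.108) for P4ha2. Over all genes the calls fell from 614 to 201 with those 9 libraries, and they ran from 267 without untreated Tmem173fl/fl replicate 1 to 1728 without colitic Tmem173iΔmye replicate 1. The P4ha2 call was also lost without any of 5 single libraries, which were untreated Tmem173fl/fl replicate 1 (-1.23, adjusted p = 0.0633) or 3 (-1.31, 0.0604), untreated Tmem173iΔmye replicate 1 (-1.35, 0.053) or 3 (-1.29, 0.0583), and colitic Tmem173fl/fl replicate 1 (-1.27, 0.0683). The call of Slc16a3 held without each single library. Pfkfb3 rose in both genotypes, and its interaction of -0.76 (SE 0.41, adjusted p = 0.352) did not pass the test. Hk2 had the largest interaction above 0, at 1.06 (SE 0.31, adjusted p = 0.0857), and was called by DESeq2, which also called Slc2a3.

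The shares that isozymes took of their family, in FPKM, turn a family's level into its composition within 1 library. Differences were tested by two-sided exact permutation of the mice, whose smallest possible p at 3 against 3 is 0.1, and over the 24 tests run the lowest adjusted p was 0.185, so the shares are descriptions. Hk2 made up 78.9, 69.7 and 69.7% of hexokinase 1 and 2 in colitic Tmem173iΔmye mice against 60.5, 61.7 and 59.6% in colitic Tmem173fl/fl mice (difference 12.2 percentage points, exact p = 0.1), with 62.9 ± 1.76% and 62.0 ± 2.8% in untreated Tmem173fl/fl and Tmem173iΔmye mice. The platelet phosphofructokinase Pfkp took 54.2, 50.3 and 55.8% of its family in colitic Tmem173iΔmye mice and 37.7, 38.5 and 42.3% in colitic Tmem173fl/fl mice (difference 13.9 points, exact p = 0.1), while Pfkl took 37.8 ± 3.55% and 48.0 ± 1.5%. In both families the colitic groups did not overlap. The Pfkp share was 47.7 ± 4.3% in untreated Tmem173fl/fl and 41.8 ± 0.397% in untreated Tmem173iΔmye mice, which also did not overlap (difference -5.84 points, exact p = 0.1), so with DSS it differed by -8.16 points in Tmem173fl/fl and by 11.6 points in Tmem173iΔmye mice.

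Epas1 made up 63.4, 71.1 and 60.0% of Hif1a and Epas1 in colitic Tmem173fl/fl mice and 45.1, 37.0 and 37.3% in colitic Tmem173iΔmye mice (difference -25.0 points, exact p = 0.1), with 45.0 ± 8.55% and 42.7 ± 3.46% in untreated mice. The colitic Tmem173fl/fl group was the 1 group with more Epas1 than Hif1a in every library. Slc2a3 was a small part of Slc2a1 and Slc2a3, 6.65, 7.11 and 4.38% in colitic Tmem173fl/fl mice, 3.61 ± 0.253% in untreated ones, 2.86 ± 0.174% in untreated Tmem173iΔmye and 2.63 ± 0.348% in colitic Tmem173iΔmye mice. As a share of counts rather than FPKM, the Slc2a3 difference was 4.52 in place of 2.43 points for DSS in Tmem173fl/fl mice and -6.43 in place of -3.42 points between colitic genotypes. Aldoc, the aldolase of brain, stayed at group means from 1.26 to 1.51% of Aldoa and Aldoc and overlapped in all comparisons.

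**Figure D5:**
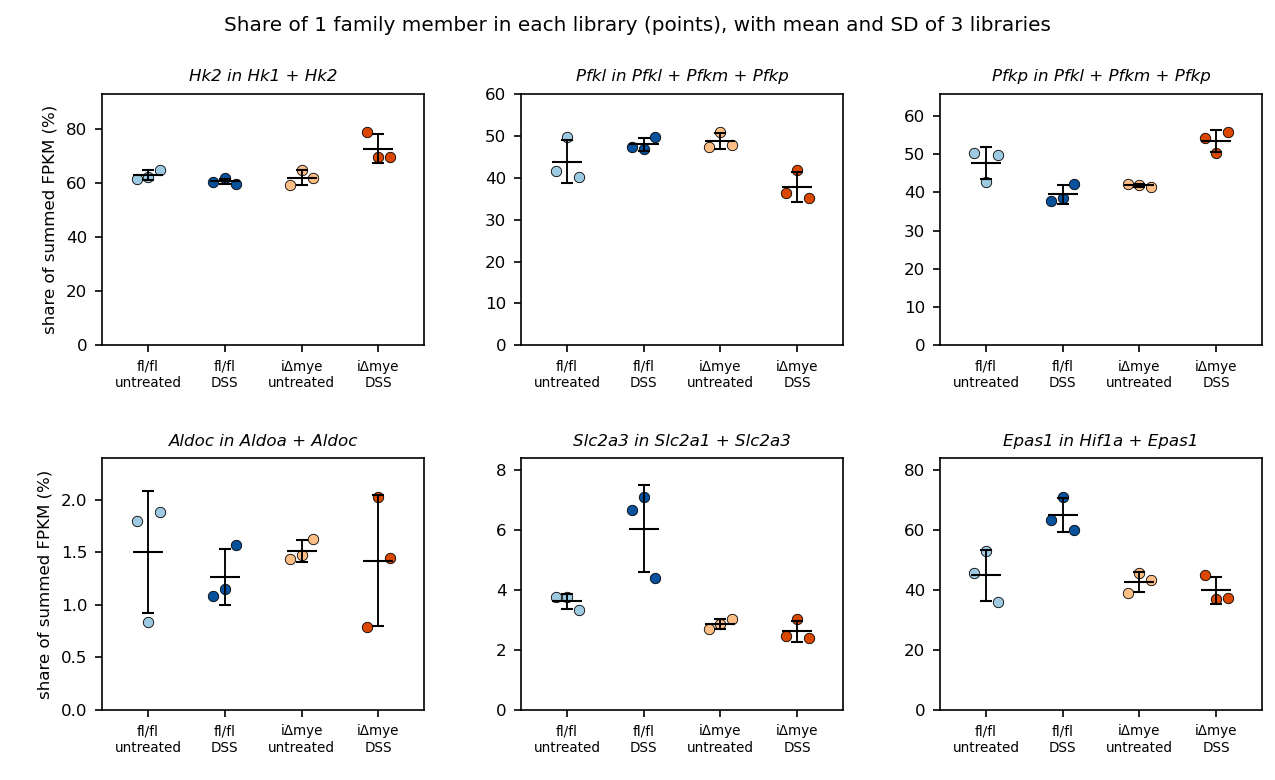
Share in percent of FPKM that 1 gene took of its family in each library (points), by group with the mean and SD, for 6 families. Colitic Tmem173fl/fl mice stand apart for Epas1 (64.8% on average) and Slc2a3 (6.05%), and colitic Tmem173iΔmye mice for Hk2 (72.8%), while their Pfkp share (53.4%) overlaps that of untreated Tmem173fl/fl mice (47.7%).

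Other genes of the same pathways were taken from 2 lists that hold no member. Of 34 further hypoxia genes tested, 16 were called higher and 2 lower for DSS in Tmem173fl/fl mice (median log2 fold change 0.91), where 14.9% and 7.61% of all genes were, among them the collagen crosslinker Lox (5.56, SE 0.24) and haem oxygenase Hmox1 (4.93, SE 0.43). In Tmem173iΔmye mice 7 were called higher and 0 lower, against 1.48% and 0.597% of all genes, with Nos2, the inducible nitric oxide synthase, first (4.61, SE 0.43, edgeR adjusted p = 0.000769), and Lox at 2.43 (SE 0.22). Between colitic genotypes 9 were lower in Tmem173iΔmye mice, among them Hmox1 (-3.10, SE 0.43, adjusted p = 0.0167) and Lox (-2.63, SE 0.21, adjusted p = 0.00511), and 1 was higher, Nos2 (1.59, SE 0.34, adjusted p = 0.0457), against 1.99% and 0.822% of all genes. The interaction was below 0 and called for 8, against 1.61% of all genes, among them Hmox1 (-3.40, SE 0.50) and Lox (-3.06, SE 0.29).

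Of 38 further genes of carbohydrate metabolism, 7 were called higher and 4 lower for DSS in Tmem173fl/fl mice (median -0.41), where 14.9% and 7.61% of all genes were. By adjusted p alone 8 were higher and 14 lower, against 19.5% and 16.0% of all genes, and 26 of the 38 had a log2 fold change below 0. The glycogen phosphorylase gene Pygl (2.24, SE 0.18), the pyruvate dehydrogenase kinase gene Pdk4 (2.14, SE 0.34) and the neuronal enolase gene Eno2 (2.05, SE 0.17) rose, and the muscle enolase gene Eno3 (-3.68, SE 0.35) and the lactate and butyrate carrier gene Slc16a1 (-1.10, SE 0.19) fell. Slc16a1 and the member Slc16a3, both carriers of lactate, went in opposite directions. Between colitic genotypes Fbp1 (-2.06, SE 0.42), Pygl (-1.57, SE 0.21) and Ldhb (-1.28, SE 0.24) were called lower and 0 higher, against 1.99% and 0.822% of all genes, and the interaction was below 0 and called for 2 of the 38, Pygl (-2.36, SE 0.36) and Ldhb (-1.64, SE 0.39).

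The promoters were searched for the same letters in all genes. A window was given for 29 of 32 members, and for all except Epas1, Ndrg1 and Slc2a3. ACGTG or its reverse complement stood in at least 1 window of 19 of the 29 members (65.5%) and of 18.5% of 27025 genes of the table with a window. It stood in 7 of 15 enzymes, in 3 of 3 regulator and transporter genes, in 3 of 3 oxygen-sensing genes and in 6 of 8 hypoxia-induced genes. Among members called higher for DSS in Tmem173fl/fl mice 5 of 6 held it, and among those not called 14 of 23 (60.9%). GCGTG was in 19 of 29 members against 30.9% of genes, either in 27 of 29 against 41.5%, and CACGTG in 5 members (Bnip3, Hif1a, Ldha, Pfkfb3 and Pfkm) against 6.86%. The members' windows were also richer in G and C, with a median of 61.6% against 52.4% over all windows, and both motifs hold mostly G and C. The members were chosen from known HIF targets, among others, so these shares describe the choice.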

How the data were processed

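Polyadenylated RNA from the colon of 12 mice was sequenced by a service company, 1 library per mouse. The authors deposited 1 table of raw counts and FPKM per gene and library, with gene lengths and GRCm38 coordinates. FPKM scales counts by gene length and sequencing depth, and in each library the deposited FPKM equal counts divided by gene length and total, times 1 constant. The submitters' processing notes name CASAVA 1.8, fastp, HISAT2 2.0.5, featureCounts 1.5.0-p3 and DESeq2 1.20.0, with no role or order. Strand use was not stated. The 25 columns of the authors' own comparisons and group means were not used.

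Groups came from the sample titles. Counts were tested in R 4.3.3 with edgeR 4.0.16 (glmQLFit and glmQLFTest, TMM scaling), each comparison on its 6 libraries and the interaction on all 12. The test covered 24102 of 54532 genes, those that reached 0.1 FPKM in 3 or more libraries, and p-values were Benjamini-Hochberg adjusted over all of them. A call needed both an adjusted p under 0.05 and a log2 change of 1 or more in either direction, and any adjusted p in the text is edgeR's unless another tool is named. SE is the log2 fold change divided by the square root of F. CPM are counts scaled to a common library size by TMM over 12 libraries. Depth ran from 13823237 to 18718915 counts. The duplicate check between libraries of a group gave a chi-square of 29.1 to 118.6 per gene, so none of these pairs was a copy. Scripts were tested on simulated counts. The members and gene lists were chosen with earlier results of these data known. All 32 members are accounted for, with values per library for those called or contrasted, and from the other lists those called with the largest changes are named, except a few genes that are not reported here. Promoter windows are from RefSeq. Alternatives were no filter, other scalings, DESeq2 1.42.0, limma 3.58.1 on log2(FPKM + 0.1) and log2(FPKM + 1), 1 fit of all libraries, a replicate block, other thresholds and each library left out.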

Additional observations from a re-analysis of the deposited data

Results flagged for a closer look

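The responses to DSS of 2 members differed between genotypes by a test of the difference itself, the interaction term in edgeR over 12 libraries. Slc16a3 had an interaction of -1.84 (log2, SE 0.34, adjusted p = 0.0134) and ranged from -2.03 to -1.42 over 20 alternatives. P4ha2 had an interaction of -1.33 (SE 0.28, adjusted p = 0.023) and ranged from -1.5 to -0.94. In the 9 libraries with reads of Y-linked genes neither passed, at -1.76 (adjusted p = 0.0764) and -1.30 (adjusted p = 0.108). Untreated Tmem173iΔmye replicate 2 had the highest Slc16a3 of the untreated libraries, 20.4 CPM. Red blood cell markers, 4 of 6 called below 0 (median -5.13), fibroblast markers, 4 of 7, and endothelial markers, 3 of 7, had interactions in the same direction. Neutrophil markers had 8 of 9 below 0 with 0 called, and macrophage and dendritic cell markers 8 of 9 below 0 with 1 called. Epithelial and colonocyte markers went the other way, with 8 of 8 and 7 of 8 above 0. The part of all these markers in either result was not tested.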

How the results depend on the processing

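For DSS in Tmem173fl/fl mice the 9 calls became 14 by adjusted p alone and 8 to 9 with each library left out, 8 with all libraries in 1 fit, and the same 9 genes were called by DESeq2 and limma. Over all genes the 5422 calls became 8544 by adjusted p alone, 5127 in 1 fit and 5303 with DESeq2. With limma they became 5128 and 2848 at pseudocounts of 0.1 and 1. For DSS in Tmem173iΔmye mice the 1 call became 2 with no filter, with DESeq2 and with all libraries in 1 fit. It also became 2 with the unadjusted p and fold threshold of the study's methods, where a figure legend of the study names an adjusted p. With limma it became 0 at either pseudocount. It was 0 to 2 with each library left out. The 501 calls over all genes moved too, to 1013 with no filter, 1137 with DESeq2 and 981 in 1 fit. With limma they became 62 and 58 at pseudocounts of 0.1 and 1. Between untreated genotypes the 0 calls became 1 (Slc16a3) with no filter and with the unadjusted p, and stayed at 0 with each library left out. With no filter the calls over all genes became 68 in place of 0. Between colitic genotypes the 2 calls became 0 with limma at either pseudocount and 0 to 3 with each library left out, 3 with DESeq2, no filter or all libraries in 1 fit (adding Hk2), and 3 with library totals (adding Epas1). Here the 678 calls over all genes became 140 and 154 with limma at pseudocounts of 0.1 and 1. They became 1619 with DESeq2, 1257 with no filter, 1492 in 1 fit and 840 with library totals. For the interaction the 2 calls became 4 with DESeq2, 1 with limma at a pseudocount of 1, 5 with the unadjusted p, 0 in the libraries with reads of Y-linked genes (an alternative added after the data were seen, as was library totals), and 1 to 3 with each library left out. Its 614 calls over all genes became 1364 with DESeq2, 606 with limma at a pseudocount of 1 and 201 in the libraries with reads of Y-linked genes. The cause was not tested. No called member reversed its direction. Counted in reads rather than FPKM, the Slc2a3 share differed by 4.52, -1.45 and -6.43 percentage points for DSS in Tmem173fl/fl mice, untreated and colitic genotypes, in place of 2.43, -0.753 and -3.42.

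Replicate numbers did not pair the samples, since deviations of same-numbered libraries correlated from -0.195 to 0.238. With a replicate block the calls were 9 for DSS in Tmem173fl/fl mice, 2 for DSS in Tmem173iΔmye mice (adding Slc16a3), 0 between untreated and 0 between colitic genotypes, and 3 for the interaction (adding Hk2). With 3 mice a group, small changes such as those of the enzymes could be missed, and sex and pancreas RNA were unequally spread over the groups.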
